A study of Mus musculus with 12 samples.

Results

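Small leucine-rich proteoglycans and matricellular proteins are secreted proteins of the extracellular matrix, and 10 of their genes were followed here in nuclear RNA of adult mouse heart muscle cells. They were taken by symbol from a count table of 46983 genes: Lum, Dcn, Bgn, Fmod and Ogn, which encode small leucine-rich proteoglycans, and Postn, Sparc, Thbs1, Tnc and Fn1, which encode matricellular proteins and fibronectin. All 10 were in the table, and all 10 passed the filter on low counts. The control mice were of the strain Myh6-MCM and had received tamoxifen. The YAP5SA mice were Yap5SA+/tg; Myh6-MCM and had received tamoxifen as well, so that the Cre transgene and the drug were common to both groups. Myh6-MCM is a tamoxifen-inducible Cre recombinase under the promoter of a cardiac myosin gene, which restricts recombination to heart muscle cells. YAP5SA is an active version of YAP, the co-activator of the Hippo pathway, in which serines that the Hippo kinases target are replaced. Nuclei of adult hearts were captured on beads through PCM1, and there were 2 RNA libraries per group. The comparison asks which of these genes differ in nuclear RNA when YAP is active in the heart muscle cell.

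Small leucine-rich proteoglycans carry a core of leucine-rich repeats and, in most cases, glycosaminoglycan chains. They bind collagen fibrils and set their spacing and thickness, and several also bind growth factors. Matricellular proteins sit in the matrix without being its main structural parts, and act on cells through integrins and other receptors. In the healthy heart most of these genes are known as products of fibroblasts and other stromal cells, and many are known to rise after injury.

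The libraries held 7850661 to 15012122 counts, so that 3 counts, the most that a count of 0 allows, correspond to 0.202 to 0.397 CPM (read counts scaled to a common library size, by TMM). Such floors cover counting error only. The control pair differed more than the YAP5SA pair, with a median absolute log2 difference of 0.41 against 0.17 over 17715 tested genes. Over the 10 genes alone the order was reversed, at 0.24 in control and 0.27 in YAP5SA. Cardiomyocyte markers were abundant in every library: Myh6, the adult cardiac myosin heavy chain gene, read 4832 and 6614 CPM in control and 2144 and 2240 CPM in YAP5SA. Transcripts known as fibroblast markers were also measured, and which cells they came from was not tested. Col1a1, which encodes a chain of type I collagen, stood at 2020 and 1371 CPM in control and at 1213 and 1370 CPM in YAP5SA. In such bulk samples, fewer cells of a type and less RNA per cell cannot be told apart. Whether the 2 libraries of a group stem from different mice is not said in the labels, so the p-values reflect library-to-library spread that could be purely technical.

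Of the 10 genes, Thbs1 and Lum rose in YAP5SA and 0 fell (edgeR quasi-likelihood test, Benjamini-Hochberg adjusted p under 0.05 over all tested genes). Over all 17715 genes the same test called 3.12% higher and 0.999% lower, 4.12% in all. The log2 fold change was positive for 9 of the 10, and their median was 0.72, beside -0.06 over all tested genes. The exception was Postn. At an unadjusted p under 0.05, 6 of the 10 were higher and 0 lower, beside 12.7% and 10.9% of all tested genes. In 8 of the 10 both YAP5SA libraries lay above both control libraries, as 28.1% of all tested genes did, and in 1 both lay below, as 28.3% did. The median log2 fold change was 0.66 over the 5 small leucine-rich proteoglycan genes and 0.78 over the 5 others.

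**Figure D1:**
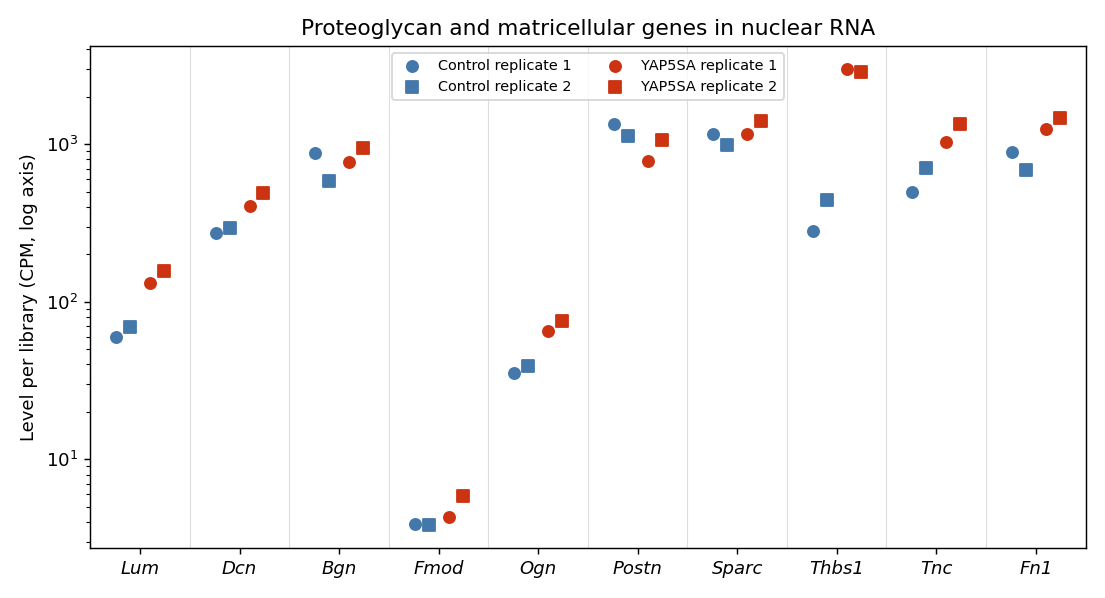
Level of each of the 10 genes in every library, in CPM on a log axis; blue symbols are the control libraries, red symbols the YAP5SA libraries, circles replicate 1 and squares replicate 2. Thbs1 shows the widest gap between the groups, Bgn is the one gene whose groups overlap, and Postn is the one gene with both YAP5SA libraries below both control libraries.

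Promoter sequences were looked up because YAP acts through TEAD factors, whose core motif is GGAATG. Read on the opposite strand it is CATTCC, and both were searched. RefSeq's table (GRCm38.p6) held 6 of the 10 genes: Bgn, Fmod, Ogn, Postn, Sparc and Tnc. Thbs1 and Lum, the genes that rose, were not in it and so were not searched, and neither were Dcn and Fn1. In the 250 bases before the start nearest to that of GENCODE, 1 of the 6 had the TEAD core on either strand, Ogn, as did 12.6% of all 32851 promoters in the table. The AP-1 motif TGANTCA, which reads the same on both strands, was in 0 of the 6 and in 6.75% of all. The starts used lay at most 31 bases from those of GENCODE, except for Sparc at 3103 bases. TATAAA, searched on the gene's strand only, was in 3 of the 6 (Ogn, Postn and Tnc) and in 7.59% of all. A match anywhere in the 250 bases counted, and its distance from the start was not taken into account. Shown are the promoter with the TEAD core, that of Tnc, whose fold change was the largest of the 6, and that of Postn, the one gene of the 10 with a negative fold change. Capitals mark the TEAD core and TATAAA, which do not overlap here, and each sequence is written 5′ to 3′ on the gene's strand.
Ogn (chr13:49607765-49608014, plus strand): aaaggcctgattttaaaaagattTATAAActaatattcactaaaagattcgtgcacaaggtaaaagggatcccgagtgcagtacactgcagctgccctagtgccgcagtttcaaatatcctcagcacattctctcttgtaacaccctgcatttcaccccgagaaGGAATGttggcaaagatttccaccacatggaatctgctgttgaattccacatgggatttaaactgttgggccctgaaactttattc
Tnc (chr4:64047016-64047265, minus strand): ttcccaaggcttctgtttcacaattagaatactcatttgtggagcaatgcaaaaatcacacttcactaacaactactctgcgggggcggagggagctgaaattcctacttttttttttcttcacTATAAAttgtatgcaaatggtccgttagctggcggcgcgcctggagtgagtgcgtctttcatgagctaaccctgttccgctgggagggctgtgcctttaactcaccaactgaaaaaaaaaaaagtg
Postn (chr3:54360857-54361106, plus strand): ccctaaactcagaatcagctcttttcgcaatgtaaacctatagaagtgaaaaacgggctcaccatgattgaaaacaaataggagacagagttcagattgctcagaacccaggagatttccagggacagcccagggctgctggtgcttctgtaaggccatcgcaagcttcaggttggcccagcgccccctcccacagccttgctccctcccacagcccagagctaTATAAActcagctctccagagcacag
The core in the Ogn promoter begins 86 bases before the start. A match is a run of letters and not a shown binding site.

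Thbs1 encodes thrombospondin-1, a large secreted glycoprotein that binds CD36 and CD47 on cells and can activate latent TGF-beta (chromosome 2, 118111876 to 118127133, mm10). Control libraries held 282 and 443 CPM of its RNA, YAP5SA libraries 3014 and 2853 CPM. The groups lay far apart: the lower YAP5SA library was 6.45 times the higher control library. Its log2 fold change was 3.02 (SE 0.352, adjusted p = 0.0284), an 8.10-fold increase, from 362 ± 114 to 2934 ± 114 CPM (SD, n = 2). By fold change it ranked 134 from the top among the tested genes. Its raw counts of 3111 and 3348 against 44734 and 37571 leave little counting error. The call was lost without YAP5SA replicate 1 (log2 fold change 2.998, adjusted p = 0.0885) and without YAP5SA replicate 2 (3.08, adjusted p = 0.159). Such fits leave 1 group with a single library and take its spread from the other group.

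Tnc encodes tenascin-C, a hexameric glycoprotein of developing and injured tissue (chromosome 4, 63959785 to 64047015). It stood at 494 and 702 CPM in control and at 1035 and 1352 CPM in YAP5SA. The groups did not overlap, but the control libraries differed 1.42-fold and the YAP5SA libraries 1.31-fold. With a log2 fold change of 0.9965 (SE 0.296), Tnc missed the threshold (adjusted p = 0.127). Tnc passed with DESeq2 (adjusted p = 0.0123) and without a filter on low counts (0.00156). It missed with limma-voom (0.105), library totals alone (0.114), a filter at a mean of 5 CPM (0.140) and the replicate number as a block (0.200). Over the fits that left out a library its log2 fold change ran from 0.77 to 1.31.

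Fn1 encodes fibronectin, the matrix glycoprotein that cells bind through integrins and on which collagen assembles (chromosome 1, 71585520 to 71653200). It stood at 890 and 688 CPM in control and at 1249 and 1461 CPM in YAP5SA. Both YAP5SA libraries were above both control libraries, by at least 1.40-fold. Its log2 fold change of 0.78 (SE 0.269) missed the threshold (adjusted p = 0.163). Fn1 passed with DESeq2 (adjusted p = 0.0294) and without a filter on low counts (0.0205). It missed with limma-voom (0.125), library totals alone (0.175), a filter at a mean of 5 CPM (0.163) and the replicate number as a block (0.347). Over the fits that left out a library its log2 fold change ran from 0.64 to 0.99.

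Sparc encodes osteonectin, a collagen-binding protein needed for normal collagen deposition (chromosome 11, 55394500 to 55423183). It stood at 1157 and 984 CPM in control and at 1162 and 1411 CPM in YAP5SA. The lower YAP5SA library and the higher control library were almost equal, with a ratio of 1.004. For Sparc the log2 difference was 0.27, with an SE of 0.263 (adjusted p = 0.583). Over the fits that left out a library it ran from 0.14 to 0.43.

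Postn encodes periostin, a marker of activated fibroblasts after heart injury (chromosome 3, 54361109 to 54391037). It stood at 1350 and 1132 CPM in control and at 779 and 1058 CPM in YAP5SA. The higher YAP5SA library was close to the lower control library, whose level was 1.07 times as high. For Postn the log2 difference was -0.43, with an SE of 0.279 (adjusted p = 0.396). Over the fits that left out a library it ran from -0.65 to -0.20.

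Lum encodes lumican, a keratan sulfate proteoglycan that regulates collagen fibril growth (chromosome 10, 97565128 to 97572703). It stood at 59.9 and 68.7 CPM in control and at 132 and 156 CPM in YAP5SA, from 661 and 520 counts against 1954 and 2059. Both YAP5SA libraries exceeded both control libraries by at least 1.92-fold. The log2 fold change was 1.16 (SE 0.182, adjusted p = 0.0394), from 64.3 ± 6.27 to 144 ± 17.5 CPM (SD, n = 2). The call was lost without YAP5SA replicate 1 (adjusted p = 0.212) and without YAP5SA replicate 2 (0.465), with log2 fold changes of 1.31 and 1.05. With the replicate number as a block it was 1.16 and missed as well (adjusted p = 0.0573).

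Dcn encodes decorin, which binds collagen fibrils and TGF-beta and carries a glycosaminoglycan chain (chromosome 10, 97479609 to 97518143). It stood at 273 and 294 CPM in control and at 408 and 488 CPM in YAP5SA. The groups did not overlap, with a gap of at least 1.39-fold. Its log2 fold change of 0.66 (SE 0.200) missed the threshold (adjusted p = 0.133). Dcn passed without a filter on low counts (adjusted p = 0.0464). It missed with DESeq2 (0.0628), limma-voom (0.120), library totals alone (0.136), a filter at a mean of 5 CPM (0.141) and the replicate number as a block (0.277). Over the fits that left out a library its log2 fold change ran from 0.55 to 0.81.

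Ogn encodes osteoglycin, also called mimecan (chromosome 13, 49608046 to 49624501). It stood at 35.5 and 39.1 CPM in control and at 65.4 and 75.0 CPM in YAP5SA. The YAP5SA libraries exceeded the control libraries by at least 1.67-fold. The log2 fold change was 0.91 (SE 0.172), and the adjusted p of 0.0521 lay just outside the threshold. Ogn passed with DESeq2 (adjusted p = 0.0104) and without a filter on low counts (0.00158). It missed with limma-voom (0.0519), library totals alone (0.0505), a filter at a mean of 5 CPM (0.0589) and the replicate number as a block (0.0927). Over the fits that left out a library its log2 fold change ran from 0.83 to 1.03.

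Bgn encodes biglycan, a close relative of decorin that can also signal through Toll-like receptors (chromosome X, 73483602 to 73495933). It stood at 884 and 584 CPM in control and at 773 and 952 CPM in YAP5SA, and the groups overlapped. The log2 fold change was 0.23 (SE 0.295, adjusted p = 0.676). The control pair differed 1.51-fold, and the value turned on which of the pair was used. It was 0.57 without Control replicate 1 and 0.0016 without Control replicate 2.

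Fmod encodes fibromodulin, which binds collagen and takes part in its cross-linking (chromosome 1, 134037254 to 134048277). It was by far the lowest of the 10, at 3.89 and 3.83 CPM in control and 4.31 and 5.85 CPM in YAP5SA, from 29 to 77 counts per library. The YAP5SA libraries lay above the control libraries by at least 1.11-fold. For Fmod the log2 difference was 0.39, with an SE of 0.323 (adjusted p = 0.504). Over the 4 fits that left out a library it ran from 0.18 to 0.62, and none of them called it.

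DESeq2 called 5 of the 10 higher (Thbs1, Lum, Ogn, Tnc and Fn1), and 0 lower, where it called 5.72% of all genes higher and 2.82% lower. Without a filter on low counts edgeR called 6, with Dcn added, and 0 lower, where 5.65% of genes were called higher and 5.53% lower. With limma-voom, library totals alone and a filter at a mean of 5 CPM, Lum and Thbs1 were again the 2 called higher and 0 were lower, beside 3.12%, 3.71% and 3.11% of genes higher and 0.903%, 1.2% and 0.994% lower. With the replicate number as a block Thbs1 was the 1 called higher and 0 were lower, beside 1.81% and 0.632%. Without Control replicate 1 it called 8 higher and 0 lower, beside 18.8% and 17.4% of genes. Without Control replicate 2 it called 6 higher and 1 lower, beside 19.7% and 18.6%. It called 0 without YAP5SA replicate 1 and 0 without YAP5SA replicate 2, beside 0.362% and 0.143% of genes higher and 0.0266% and 0% lower. The median log2 fold change of the 10 was 0.86 without YAP5SA replicate 1, beside -0.09 over all tested genes. Without YAP5SA replicate 2 it was 0.61, beside -0.06. For the 10 genes, the sign of the fold change was the same in each of the 10 alternatives that tested the gene, 9 of them positive and Postn negative. Within the YAP5SA pair, 9 of the 10 were higher in YAP5SA replicate 2 than in YAP5SA replicate 1, with Thbs1 the exception. The share of all tested genes that did so was not counted. In the control pair 5 were higher and 5 lower in replicate 2.

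**Figure D2:**
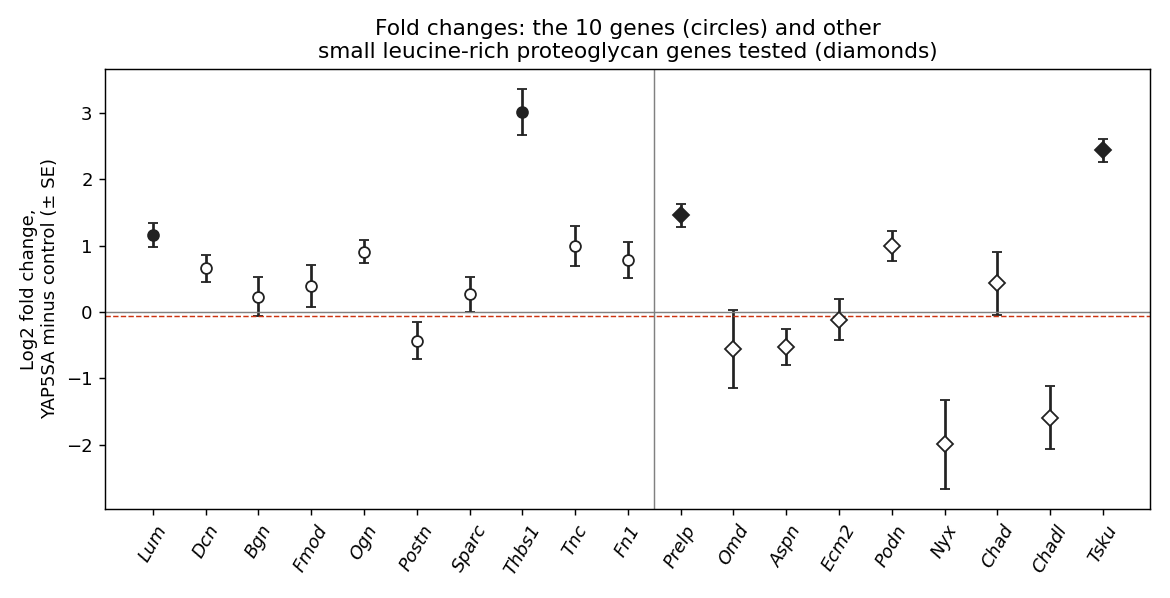
Log2 fold change, YAP5SA minus control, with its SE from the edgeR fit, for the 10 genes (circles) and the 9 other small leucine-rich proteoglycan genes tested (diamonds). Filled symbols passed an adjusted p of 0.05, the dashed line is the median of -0.06 over all tested genes, and Thbs1 and Tsku stand highest.

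Levels of different genes can be compared only per length, here in CPM per kilobase of annotated exon. In control, Sparc was the highest at 283 ± 32.5 (SD, n = 2), above Postn at 143 ± 17.7 and Bgn at 120 ± 34.8, whose libraries overlapped. Tnc at 77.0 ± 18.9, Fn1 at 67.5 ± 12.2 and Thbs1 at 59.6 ± 18.7 followed and overlapped each other, and Dcn at 48.6 ± 2.44 lay within the range of Thbs1. Lum at 26.3 ± 2.56, Ogn at 14.5 ± 0.998 and Fmod at 1.17 ± 0.0131 came last, each apart from its neighbours. In YAP5SA the order changed at the top. Thbs1 led at 483 ± 18.8 and Sparc followed at 339.6 ± 46.6. Tnc at 154 ± 28.9 and Bgn at 141 ± 20.8 overlapped, as did Fn1 at 116 ± 12.8 and Postn at 106 ± 22.7. Dcn at 76.7 ± 9.67, Lum at 58.8 ± 7.13, Ogn at 27.4 ± 2.62 and Fmod at 1.54 ± 0.328 kept their places. By exon length Postn was thus second in control and sixth in YAP5SA. Several places depend on the length used. With the longest annotated transcript, Bgn stood above Postn in control (275 against 238) and Fn1 above Tnc (94.9 against 84.2). In YAP5SA Sparc then stood above Thbs1 (559 against 502), and Postn at 176 came after Bgn at 323 and above Tnc at 168 and Fn1 at 163.

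**Figure D3:**
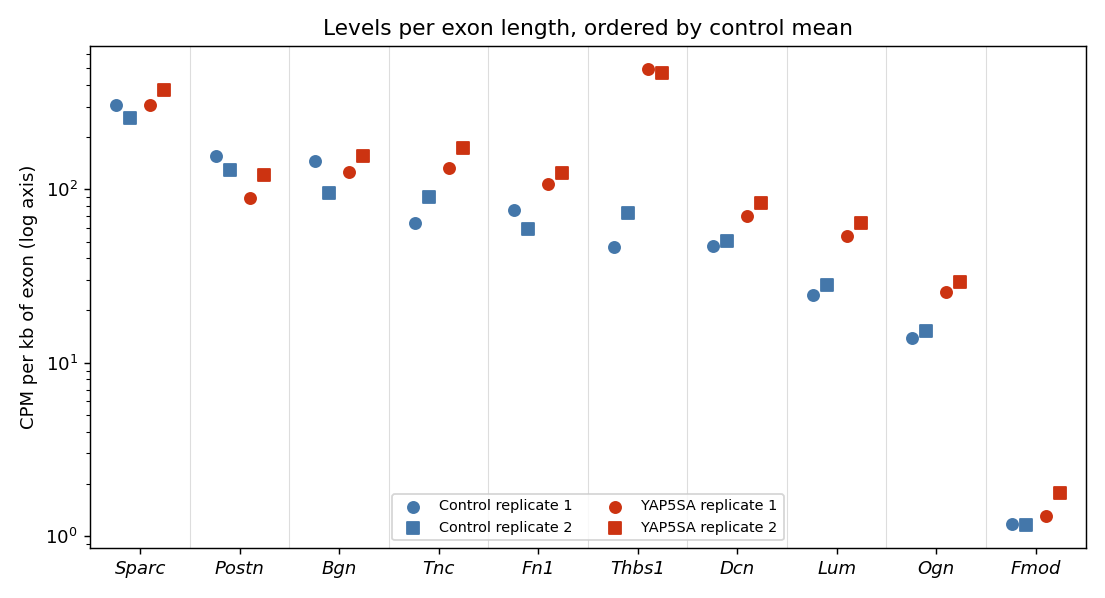
Level per exon length of the 10 genes in every library, in CPM per kilobase on a log axis, ordered by the control mean. By this length Thbs1 is sixth in control and first in YAP5SA, and Fmod is lowest in all 4 libraries.

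Ratios of raw counts within a library do not depend on scaling. Dcn had 4.57 and 4.27 times the counts of Lum in the control libraries and 3.10 and 3.12 times in the YAP5SA libraries, and the groups did not overlap. The ratio of Dcn to Ogn was 7.70 and 7.50 in control and 6.23 and 6.51 in YAP5SA. Thbs1 had 0.317 and 0.644 times the counts of Fn1 in control and 2.41 and 1.95 times in YAP5SA. Postn had 1.52 and 1.65 times the counts of Fn1 in control and 0.624 and 0.724 times in YAP5SA. The ratio of Bgn to Dcn was 3.23 in Control replicate 1 and between 1.89 and 1.99 in the other 3 libraries, so that Control replicate 1 stood apart. With 2 libraries against 2, an exact two-sided permutation test cannot give a p below 0.333, and none is given for these ratios.

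Small leucine-rich proteoglycan genes lie in clusters, and neighbours within a cluster had unequal levels. On chromosome 10, Dcn and Lum are 46984 bases apart on the same strand, followed by Kera, the keratocan gene, and Epyc, the epiphycan gene. Kera had 0 and 0 counts in control and 2 and 0 in YAP5SA, and Epyc 0 and 0 against 1 and 0, so neither was detectable at this depth. On chromosome 13, Ogn follows Ecm2, Aspn and Omd. Aspn, the asporin gene, stood at 41.8 and 25.2 CPM in control and at 23.2 and 23.5 CPM in YAP5SA, with a log2 fold change of -0.53 (adjusted p = 0.304), while that of Ogn was 0.91. Omd, the osteomodulin gene, had 9 to 17 counts per library, and Ecm2 a log2 fold change of -0.12 (adjusted p = 0.850).

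On chromosome 1, Fmod lies beside Prelp and Optc. Prelp, which encodes a heparan sulfate-binding member of the family (133910304 to 133921414), stood at 26.5 and 24.8 CPM in control and at 65.2 and 75.9 CPM in YAP5SA. It rose 2.74-fold (log2 fold change 1.46, SE 0.175, adjusted p = 0.0284), while Fmod, 115839 bases away, did not pass. Optc, the opticin gene, had at most 1 count per library. Over the whole list of 13 other small leucine-rich proteoglycans, 9 were tested, 2 rose and 0 fell, with a median log2 fold change of -0.12. The second to rise was Tsku, which encodes the secreted protein tsukushi. It stood at 16.2 and 18.0 CPM in control and at 95.1 and 90.1 CPM in YAP5SA, and it rose by 2.44 on the log2 scale (SE 0.171, adjusted p = 0.0112). The 2 calls in this list did not both hold when either YAP5SA library was left out. With either Control library left out, large shares of all tested genes were called in both directions, so counts for this list are not given.

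Among the 36 nearest protein-coding neighbours of the 10 genes that are not themselves among them (the nearest pair on each side), 25 were tested, 3 rose and 0 fell. Over all tested genes 3.12% were called higher and 0.999% lower. This comparison was chosen after the values were seen, and the count was not tested against those shares. The 3 were Prelp, and Tnfsf15 and Pappa, both neighbours of Tnc on chromosome 4. Tnfsf15, a cytokine gene, lies 214671 bases from Tnc and went from 2 counts in each control library to 785 and 806 in the YAP5SA libraries. Pappa, which encodes a protease of insulin-like growth factor binding proteins, begins 1077158 bases away and stood at 11.0 and 10.6 CPM in control and 27.0 and 27.3 CPM in YAP5SA. Tnfsf8 lies between Tnfsf15 and Tnc and stood at 0.453 and 0.661 CPM in control and 2.22 and 2.20 CPM in YAP5SA, and did not pass. The neighbour nearest to Thbs1, Fsip1, lies 3290 bases away and had at most 1 count in any library.

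The authors' counting does not state its use of strand, and 3 of the 10 genes share exon sequence with a gene on the other strand. The partners were near zero: Gm29233 at Thbs1 had 2, 0, 1 and 0 counts, Apol7d at Fn1 had 1 in each library, and 8030451A03Rik at Tnc had 3 and 5 counts in control and 23 and 13 in YAP5SA. The same limit holds for Prelp, Aspn, Epyc, Pi16, Pdgfra, Ltbp2, Itga4, Stab1, B3gnt7 and Myh6.

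Genes that work with these proteins were described from 4 further lists. Of 22 other matricellular genes 19 were tested, 1 rose and 0 fell, with a median log2 fold change of 0.32. The one that rose was Wisp1, a CCN family gene, at 36.4 and 52.5 CPM in control and 177 and 188 CPM in YAP5SA (log2 fold change 2.04, SE 0.228, adjusted p = 0.0278). Chosen after their values were seen were relatives of Postn, Thbs1 and Sparc. Tgfbi, the paralog of Postn, had a log2 fold change of 1.26 and an adjusted p of 0.0501, just outside the threshold. Thbs2, Thbs3, Thbs4 and Comp, relatives of Thbs1, had 0.47, 0.21, 0.25 and 1.21 (adjusted p = 0.188, 0.715, 0.628 and 0.225). Relatives of Sparc differed in sign. Sparcl1 had -1.01 (adjusted p = 0.117), Smoc1 -1.36 (0.0759), Spock2 -3.65 (0.153), Fstl1 -0.13 (0.827) and Smoc2 0.80 (0.106).

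Of 19 receptors of these proteins, all tested, 3 rose and 0 fell, with a median of 0.08. Tlr2, a Toll-like receptor for biglycan, rose 3.15-fold (adjusted p = 0.0329). Tlr4, another Toll-like receptor on the list, was chosen after its values were seen. Its log2 fold change was -0.18 (adjusted p = 0.876). Itga4, the alpha subunit of an integrin that binds fibronectin, rose 2.66-fold (0.0409), and Stab1, a scavenger receptor that takes up SPARC, 2.25-fold (0.0452). The thrombospondin receptors Cd36 and Cd47 had log2 fold changes of -0.84 and 0.03 (adjusted p = 0.150 and 0.931), also chosen after their values were seen.

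Of 22 genes of glycosaminoglycan chain synthesis, all tested, 2 rose and 0 fell, with a median of 0.18. Dse, which encodes the epimerase that makes dermatan sulfate, the chain type of decorin and biglycan, went from 38.1 and 26.4 to 73.7 and 80.3 CPM (adjusted p = 0.0493). B3gnt7, which takes part in keratan sulfate synthesis, the chain type of lumican and fibromodulin, went from 14 and 4 counts to 78 and 93 (adjusted p = 0.0492). Of this list 0 genes were called with the replicate block or with the filter at a mean of 5 CPM, and 1 with limma-voom. Of 18 fibrillar collagen genes and their partners, Col12a1, a fibril-associated collagen gene, rose 4.93-fold (adjusted p = 0.0209), 0 fell, and the median was 0.27. In all 4 of these lists, 0 genes were called when either YAP5SA library was left out. With either Control library left out, large shares of all tested genes were called in both directions, so counts for the 4 lists are not given.

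Markers of other cell types that make these proteins were read in the same libraries, leaving the 10 genes out of every list. The summed level of the 10 genes was 5430 and 4937 CPM in control and 8621 and 9812 CPM in YAP5SA. The 12 fibroblast markers summed to 7135 and 5730 CPM in control and to 5505 and 6793 CPM in YAP5SA, so the groups overlapped. Their median log2 fold change was -0.39, with 5 positive and 7 negative, and at an unadjusted p under 0.05 there were 3 higher and 0 lower. Past the threshold 1 of 12 rose and 0 fell: Pi16, a marker of adventitial fibroblasts, 2.25-fold (adjusted p = 0.0393). The fibroblast-defining genes Pdgfra and Tcf21, chosen after their values were seen, had log2 fold changes of -0.39 and -0.62 (adjusted p = 0.574 and 0.304). As a share of the fibroblast marker sum, Lum was 0.839% and 1.20% in control and 2.39% and 2.30% in YAP5SA. Thbs1 was 3.95% and 7.72% in control and 54.8% and 42.0% in YAP5SA, and Ogn was 0.498% and 0.683% against 1.19% and 1.10%. Dcn was 3.83% and 5.12% against 7.41% and 7.18%. Sparc was 16.2% and 17.2% against 21.1% and 20.8%, and Postn 18.9% and 19.8% against 14.2% and 15.6%. On that scale 9 of the 10 genes were higher and 1 was lower without overlap, Bgn included, beside 27.6% and 19.4% of all tested genes.

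Activated fibroblast markers, 8 genes, summed to 921 and 823 CPM in control and to 1357 and 1776 CPM in YAP5SA. Of the 8, 5 had positive and 3 negative fold changes, with a median log2 value of 0.15, and 1 rose. That gene was Acta2, smooth muscle alpha-actin, also made by mural cells, at 158 and 97.5 CPM in control and 712 and 917 CPM in YAP5SA (adjusted p = 0.0284). Acta2 was thus a large part of the YAP5SA sum, and the sum without it was not computed. The higher sum therefore does not show a rise of the other genes of the list. Other members of that list differed in sign, chosen here after their values were seen: Fap had a log2 fold change of 1.504, and Cthrc1 and Ltbp2 had -0.94 and -0.82, with adjusted p of 0.0537, 0.273 and 0.116. Macrophage markers, 11 genes, summed to 781 and 586 CPM in control and to 1422 and 1706 CPM in YAP5SA. All 11 had positive fold changes (median 1.499), and 5 rose, among them Fcgr1, Cd14 and Adgre1 by 3.70-, 3.22- and 3.07-fold (adjusted p = 0.0266, 0.0284 and 0.0301). Macrophages can make Thbs1 and Fn1, and their part in the rise of Thbs1 was not tested.

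Epicardial markers, 8 genes, summed to 172 and 131 CPM in control and to 233 and 267 CPM in YAP5SA, with 0 called by edgeR and, at an unadjusted p under 0.05, 4 higher and 3 lower, and DESeq2 called 3 higher. Endothelial markers, 9 genes, summed to 1513 and 1093 CPM against 794 and 755 CPM, and Vwf and Robo4 fell (adjusted p = 0.0428 and 0.0466). Mural cell markers, 8 genes, summed to 1563 and 1449 CPM against 884 and 824 CPM, with 0 called by edgeR, 4 lower at an unadjusted p under 0.05 and 2 lower with DESeq2. Platelet markers, 5 genes, summed to 35.4 and 22.6 CPM against 26.4 and 33.1 CPM, and overlapped, with 0 called by edgeR or DESeq2 and 1 each way at an unadjusted p under 0.05. Of 4 Schwann cell markers 3 were tested and Mbp rose 4.18-fold (adjusted p = 0.0305). Mbp was the 1 with a positive fold change, the other 2 were negative, and the median log2 fold change was -0.66. The sums of the list were 13.9 and 9.91 CPM in control against 24.2 and 23.9 CPM in YAP5SA. The 8 cardiomyocyte markers summed to 31026 and 63026 CPM in control and to 22305 and 23329 CPM in YAP5SA, with 0 called by edgeR, 3 lower at an unadjusted p under 0.05 and 3 lower with DESeq2. When YAP5SA replicate 1 or YAP5SA replicate 2 was left out, 0 genes were called in the fibroblast, macrophage, endothelial and Schwann cell lists, and in the activated fibroblast list 1 and 0. With either Control library left out, the macrophage genes called were all higher and the endothelial genes called were all lower. Those fits called large shares of all tested genes in both directions. With the replicate block the fibroblast list had 0 higher and the endothelial list 0 lower. No marker list had a member at 0 in all 4 libraries. The parts of these cell types in the levels of the 10 genes were not tested.

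**Figure D4:**
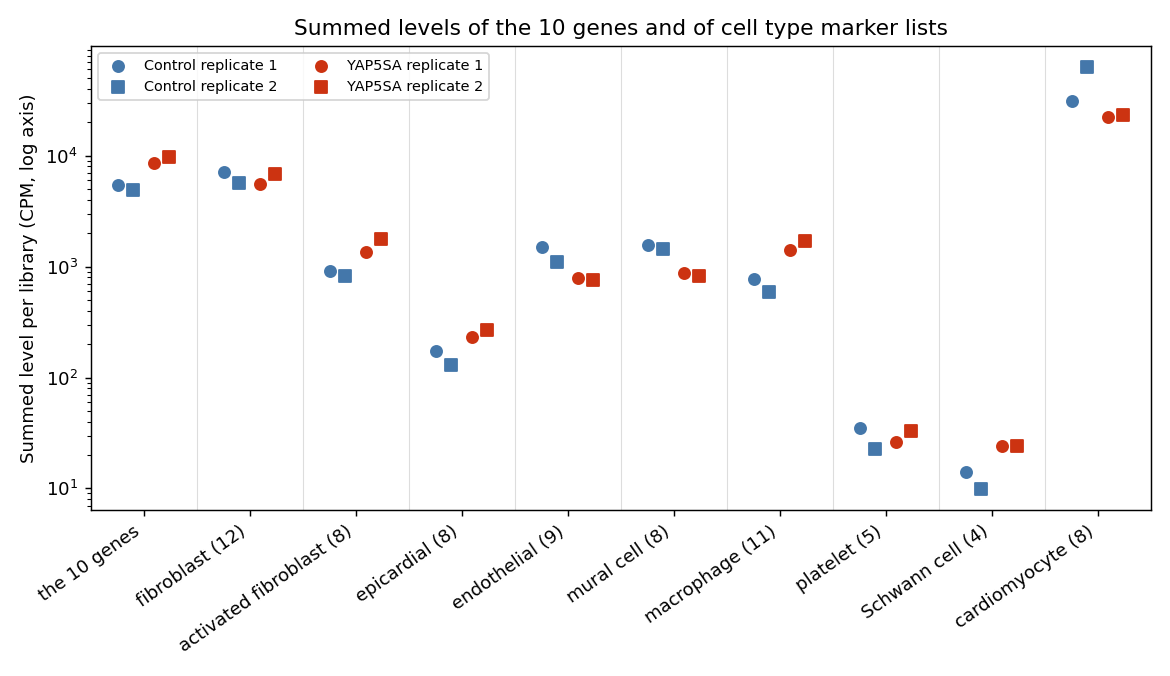
Summed level per library, in CPM on a log axis, of the 10 genes and of each cell type marker list, with the number of listed genes in parentheses. The 10 genes and the activated fibroblast, epicardial, macrophage and Schwann cell lists lie higher in both YAP5SA libraries. The endothelial, mural and cardiomyocyte lists lie lower, and the fibroblast and platelet lists overlap. Sums are weighted toward abundant genes: Acta2 is a large part of the activated fibroblast sum in YAP5SA. Of the tested Schwann cell genes 1 had a positive and 2 a negative fold change.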

How the data were processed

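The authors deposited raw counts per gene symbol for 4 nuclear RNA libraries, made with a stranded kit with ribosomal RNA removal and mapped to mm10 with STAR, per the labels' protocols. DESeq2 is named for the authors' own test, per the submitters' processing notes. The counting program, annotation, strand setting and use of intronic reads are details not given in the sources used, and each could shift levels in nuclear RNA. The ATAC-seq and 4C-seq samples were not analysed here.

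From the counts, filterByExpr (minimum count 10) kept 17715 genes and edgeR 4.0.16 (R 4.3.3) compared 2 with 2 libraries by its quasi-likelihood test after TMM scaling. P-values were adjusted over all tested genes. Each SE was derived from the F statistic, as |log2 fold change| over its root. Alternatives used DESeq2 1.42.0, limma-voom 3.58.1, other filters and scaling, a replicate block, and each library left out. The pipeline was tested on simulated counts with 4-fold changes and a single fixed spread for all genes. That spread was not matched to these libraries, so the test gives no error rate for them. Coordinates, exon lengths and neighbours come from GENCODE M21 (GRCm38, which is mm10). Both replicate pairs differed by more than counting noise (chi-square per gene 61.9 for control, 15.2 for YAP5SA), so none is 1 library deposited again.

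The members and lists were chosen with earlier results of these data known. All 10 members are named, and from each other list the genes past the threshold, at most 3 in each direction, and the proteoglycan genes clustered with members. Genes chosen otherwise are said to be.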

Additional observations from a re-analysis of the deposited data

How the results depend on the processing

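Over all tested genes, 553 were called higher and 177 lower, of the 10 genes 2 and 0, and of the 164 genes on the other lists 17 and 2. DESeq2 gave 1069 and 527 over all genes, 5 of the 10 higher, and 33 and 9 on the lists. Without a filter on low counts there were 1727 and 1689, 6 of the 10 higher, and 42 and 27 on the lists. Leaving out single libraries moved the counts most: over all genes 27 to 3749 were higher and 0 to 3554 lower, of the 10 genes 0 to 8 were higher and 0 to 1 lower, and on the lists 0 to 62 higher and 0 to 45 lower. The cause was not tested. The labels do not say that the replicate numbers pair the libraries, and deviations of same-numbered libraries had a correlation of -0.09 across genes. With the replicate block 321 and 112 genes were called, 1 of the 10 (Thbs1, adjusted p = 0.0375, while Lum had 0.0573) and 0 list genes lower. The median log2 fold change of the 10 ran from 0.61 to 0.86 over the alternatives. None of the 10 genes changed sign in any alternative that tested it, and signs of other genes were not compared. limma-voom, library totals alone and the filter at a mean of 5 CPM kept both calls, and Fmod falls below that filter. Low counts limit the precision of Fmod (29 to 77 counts per library) and of B3gnt7 (14 and 4 control counts).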
